A study of Homo sapiens with 9 samples.

Results

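The expression of YAP1, WWTR1 (the gene of TAZ), TEAD1, TEAD4, CCN1 (also CYR61), CCN2 (also CTGF), ANKRD1, AMOTL2, AXL and LATS2 was followed in MDA-MB-231 cells depleted of the zinc transporter ZIP7. These 10 genes were taken as Hippo pathway effectors and targets that bear on ferroptosis sensitivity, and the rule used no expression value. They were found among the 58395 Ensembl gene identifiers in the count files by their GENCODE 29 symbols, and all 10 were among the 16761 genes that passed the low-count filter. MDA-MB-231 is a mesenchymal triple-negative breast cancer line. The cells were transfected with a non-targeting control siRNA (siNC), a first siRNA against ZIP7 (siZIP7_1) or a second one (siZIP7_2). RNA was taken after 96 h, with 3 libraries per siRNA, 9 in all. All groups shared this single line, the medium and the time after transfection. The study lists its ZIP7_1 siRNA from Horizon and its ZIP7_2 siRNA from Qiagen, so supplier and sequence cannot be told apart between them.

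YAP and TAZ are transcriptional coactivators with no DNA-binding domain of their own. They act through the TEAD transcription factors, which bind a short DNA word, GGAATG on one strand and CATTCC on the other. The Hippo kinases MST1/2 and LATS1/2 phosphorylate YAP and TAZ, which keeps them in the cytoplasm or sends them to degradation. The secreted matricellular proteins CCN1 and CCN2 and the nuclear cofactor ANKRD1 are the most used readouts of YAP/TAZ activity, while LATS2 and AMOTL2 are targets that also restrain YAP and TAZ. In ferroptosis, the iron-dependent death by lipid peroxidation, YAP and TAZ are known to sensitize cells grown at low density. Their activity is set largely by phosphorylation and localization, which RNA levels do not report.

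The sequences before the transcription start of 4 of the genes are shown first, because the TEAD word stands in them and these genes did not move alike. RefSeq windows on GRCh38.p14, each of 250 bases ending at the base before an annotated start, were matched by symbol for 7 of the 10 genes (10 windows). TEAD1, TEAD4 and CCN1 had no window and were not searched. The letters GGAATG were searched on both strands, and 5 of the 10 windows held them. Among all 35116 such windows, 11.9% held the word at least once, 0.94% at least 2 times and 0.0826% at least 3 times. The windows of 4 genes are printed 5′ to 3′ on the gene's strand, with each match in capitals (CATTCC where it is on the other strand).
CCN2, minus strand, chr6:131951373-131951622: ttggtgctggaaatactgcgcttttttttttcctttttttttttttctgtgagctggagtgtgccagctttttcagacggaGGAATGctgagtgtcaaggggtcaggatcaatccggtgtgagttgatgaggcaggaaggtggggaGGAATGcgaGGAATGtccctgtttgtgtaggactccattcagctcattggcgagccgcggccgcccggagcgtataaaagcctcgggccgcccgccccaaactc
ANKRD1, minus strand, chr10:90921088-90921337: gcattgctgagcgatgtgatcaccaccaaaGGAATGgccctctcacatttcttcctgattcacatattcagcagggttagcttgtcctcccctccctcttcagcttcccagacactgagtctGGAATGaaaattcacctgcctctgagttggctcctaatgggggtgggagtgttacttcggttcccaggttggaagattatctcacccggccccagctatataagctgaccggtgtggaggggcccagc
AMOTL2, minus strand, chr3:134374448-134374697: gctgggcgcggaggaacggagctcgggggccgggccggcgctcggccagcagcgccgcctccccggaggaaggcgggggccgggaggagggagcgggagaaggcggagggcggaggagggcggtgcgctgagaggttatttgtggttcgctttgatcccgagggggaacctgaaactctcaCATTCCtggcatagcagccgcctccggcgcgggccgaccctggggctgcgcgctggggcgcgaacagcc
YAP1, plus strand, chr11:102110197-102110446: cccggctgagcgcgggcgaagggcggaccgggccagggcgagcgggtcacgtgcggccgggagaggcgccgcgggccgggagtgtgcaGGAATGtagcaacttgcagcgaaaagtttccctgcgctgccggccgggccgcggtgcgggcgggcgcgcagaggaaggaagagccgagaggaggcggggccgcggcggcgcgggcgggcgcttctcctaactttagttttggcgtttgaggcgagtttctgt

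The CCN2 window held the word 3 times, at 169, 104 and 95 bases before the start. The ANKRD1 window held it 2 times, at 220 and 128 bases, and the GENCODE 29 gene reaches into that window from a start farther upstream. In AMOTL2 the single match lay on the other strand, 69 bases before a start inside the longer gene model, and in YAP1 it lay at 162 bases. The second window of AXL, before an internal start at chr19:41226505-41226754, held it once on the other strand at 212 bases. No match lay in the first AXL window, the other AMOTL2 window, the LATS2 window or either WWTR1 window. Both WWTR1 windows lay before starts inside the longer gene model, so the stretch before its outer start was not searched. The word TGANTCA, with any letter at N, reads the same on both strands and is looser than the AP-1 word, which has C or G there. It stood in the ANKRD1 window once, apart from both GGAATG matches and with T at N, so not as the AP-1 word itself. None of the other 9 windows held TGANTCA, against 6.57% of all windows. A match of letters describes the window and does not show that a TEAD protein was bound there.

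Between 24153785 and 30454419 reads per library fell on genes, and 3 counts, the floor used for a detected gene, were worth 0.0985 to 0.124 CPM before TMM scaling. CPM elsewhere is a gene's reads relative to the TMM-scaled total of its library. This floor covers counting error only. SLC39A7, the gene of ZIP7, checked the labels of control against ZIP7 siRNA, but cannot check which of the ZIP7 siRNAs a library received. It was at 329 ± 12.5 CPM in siNC (mean ± SD, n = 3 for every such value), 35.6 ± 2.83 CPM after siZIP7_1 and 19.2 ± 1.45 CPM after siZIP7_2. Reads outside annotated genes made up 7.43% to 8.28% of all reads in the count files in siNC, 7.80% to 9.62% with siZIP7_1 and 9.995% to 11.5% with siZIP7_2, and their part in the results was not tested. Of the markers of the line, VIM, CD44, KRT18 and PLAU were expressed and SPARC was at only 0.459 CPM in siNC. The 5 together summed to 7375 to 7867 CPM in siNC, 3676 to 3956 CPM after siZIP7_1 and 5677 to 5940 CPM after siZIP7_2. VIM was the largest part of these sums, and the 5 did not move together. After siZIP7_1 KRT18 was higher (366 to 380 CPM, against 238 to 258 CPM in siNC), while VIM, CD44 and PLAU were lower. After siZIP7_2 CD44 was higher (1727 to 1826 CPM, against 787 to 861 CPM in siNC), while VIM, KRT18 and PLAU were lower. SPARC was higher with both, at up to 4.89 CPM. ESR1 and PGR were at or under the floor in siNC. The 4 markers taken as low in this line (ESR1, PGR, CDH1 and EPCAM) summed to 6.83 to 7.58 CPM in siNC. Their sums were 13.9 to 14.6 CPM after siZIP7_1 and 5.67 to 6.27 CPM after siZIP7_2, most of each from EPCAM. Of 7 markers of other cells, CD3E and DCN were at or under the floor in all groups. The 7 summed to 62.7 to 67.9 CPM in siNC, 122 to 132 CPM after siZIP7_1 and 195 to 220 CPM after siZIP7_2, most of it from COL1A1, and the part of these shifts in the results was not tested.

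Of the 10 genes, 5 rose and 4 fell with siZIP7_1, and 5 rose and 4 fell with siZIP7_2, by edgeR's quasi-likelihood test at an adjusted p under 0.05. Among all 16761 genes tested, 70.7% passed this threshold with siZIP7_1 (34.8% higher, 35.9% lower) and 77.8% with siZIP7_2 (38.5% higher, 39.3% lower), so 9 of 10 was not far from what genes did in general. The libraries of 9 of the 10 genes did not overlap siNC with siZIP7_1, against 72.1% of all genes, and likewise 9 of 10 with siZIP7_2, against 78.7%. The sizes ranged from -1.97 to 1.97 on the log2 scale with siZIP7_1 and from -0.93 to 1.06 with siZIP7_2. With siZIP7_1, 3 of the 10 genes were called and changed by at least 2-fold, against 20.9% of all genes, and with siZIP7_2 it was 1, against 28.2%. The median log2 fold change of the 10 was 0.16 with siZIP7_1 and 0.09 with siZIP7_2, where the median of all genes was -0.0069 and -0.0018. Both comparisons share the siNC libraries, so they are not independent of each other and their values are given side by side. In bulk RNA, fewer cells that express a gene and less RNA per cell cannot be told apart.

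**Figure D1:**
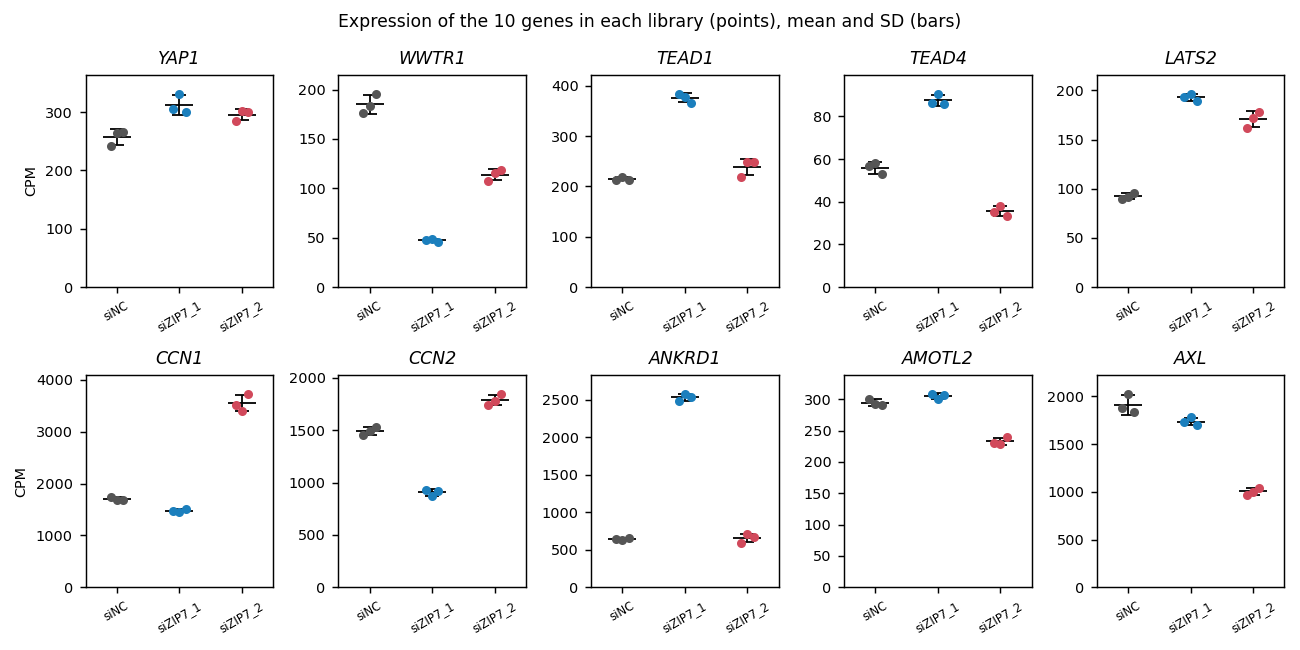
CPM (y axis, from 0) of each of the 10 genes in every library (points) for siNC, siZIP7_1 and siZIP7_2, with the mean and SD of 3 libraries as bars. WWTR1 was lowest with siZIP7_1 at 46.0 to 48.2 CPM, ANKRD1 stood at 2481 to 2575 CPM after siZIP7_1 alone, and CCN1 at 3409 to 3725 CPM after siZIP7_2 alone.

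The coactivators went in opposite directions: YAP1 mRNA rose slightly and TAZ mRNA fell with both siRNAs. YAP1, on chromosome 11 from 102110461 to 102233423 (plus strand), was at 242, 264 and 266 CPM in siNC, 304, 331 and 300.4 CPM after siZIP7_1 and 285, 302 and 299.6 CPM after siZIP7_2. All 6 ZIP7 siRNA libraries lay above the 3 controls. Its log2 fold change was 0.28 (SE 0.0498, adjusted p = 1.44e-05, edgeR) with siZIP7_1 and 0.20 (SE 0.0499, adjusted p = 7.22e-04, edgeR) with siZIP7_2. WWTR1, on chromosome 3 from 149517235 to 149736714 (minus strand), was at 176, 183 and 196 CPM in siNC. It was at 47.7, 48.2 and 46.0 CPM after siZIP7_1 and at 108, 116 and 119 CPM after siZIP7_2. None of the 3 groups overlapped, and the loss was larger with siZIP7_1, to 25.6% of siNC, than with siZIP7_2, to 61.6%. Its log2 fold change was -1.97 (SE 0.0526, adjusted p = 3.26e-23, edgeR) and -0.70 (SE 0.0496, adjusted p = 2.05e-13, edgeR), and the siRNAs themselves differed by 1.27 (adjusted p = 6.11e-19, edgeR). Other genes overlap 9.97% of the exonic length of YAP1 and 9.45% of that of WWTR1, and reads of such stretches may be split or lost.

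Since YAP and TAZ share partners and targets, their ratio was set out per length. FPKM here is the CPM divided by the exonic length in kilobases. The FPKM of YAP1 was 1.86 ± 0.0601 times that of WWTR1 in siNC, 8.81 ± 0.342 times with siZIP7_1 and 3.47 ± 0.0826 times with siZIP7_2. The 3 ranges did not overlap, so YAP1 made up more of the coactivator mRNA with either siRNA, and most with siZIP7_1.

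TEAD1 and TEAD4, the DNA-binding partners, rose together with siZIP7_1 and parted with siZIP7_2. TEAD1, on chromosome 11 from 12674591 to 12944483 (plus strand), was at 214, 219 and 213 CPM in siNC, 384, 378 and 366 CPM after siZIP7_1 and 219.5, 248 and 248 CPM after siZIP7_2. The siZIP7_1 libraries stood far above the rest, while the lowest siZIP7_2 library was almost level with the highest control. The log2 fold change of TEAD1 was 0.80 (SE 0.0491, adjusted p = 8.38e-15, edgeR) with siZIP7_1 and 0.15 (SE 0.0493, adjusted p = 7.71e-03, edgeR) with siZIP7_2. Without the low-count filter the second value was 0.10 (adjusted p = 0.107, edgeR) and no longer passed. TEAD4, on chromosome 12 from 2959330 to 3040673 (plus strand), was at 56.9, 58.2 and 52.8 CPM in siNC, 86.2, 90.6 and 86.0 CPM after siZIP7_1 and 35.4, 37.8 and 33.1 CPM after siZIP7_2. These 3 groups were apart, with siZIP7_1 above and siZIP7_2 below the controls. The fitted change was 1.57-fold up with siZIP7_1 (log2 0.65, SE 0.0540, adjusted p = 9.84e-12, edgeR) and 1.58-fold down with siZIP7_2 (log2 -0.66, SE 0.0575, adjusted p = 2.27e-11, edgeR). The FPKM of TEAD1 relative to TEAD4 was 0.851 ± 0.0358 in siNC, 0.949 ± 0.0317 with siZIP7_1 and 1.49 ± 0.147 with siZIP7_2.

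CCN1 and CCN2, the secreted targets most used to read YAP/TAZ activity, fell with siZIP7_1 and rose with siZIP7_2. CCN1, on chromosome 1 from 85580761 to 85583962 (plus strand), was at 1745, 1687 and 1690 CPM in siNC. It was at 1476, 1447 and 1507 CPM after siZIP7_1, and at 3524, 3409 and 3725 CPM after siZIP7_2. Every siZIP7_1 library lay below and every siZIP7_2 library above the controls. For CCN1 the log2 fold change was -0.21 (SE 0.0484, adjusted p = 3.43e-04, edgeR) with siZIP7_1 and 1.06 (SE 0.0488, adjusted p = 1.03e-17, edgeR) with siZIP7_2. CCN2, on chromosome 6 from 131948176 to 131951373 (minus strand) and overlapped over 8.34% of its exonic length, was at 1454, 1496 and 1536 CPM in siNC. Its libraries were at 933, 868 and 919 CPM after siZIP7_1 and at 1745, 1778 and 1845 CPM after siZIP7_2. CCN2 had the same order of groups as CCN1, but its larger change was the fall with siZIP7_1. Its log2 fold change was -0.72 (SE 0.0480, adjusted p = 6.40e-14, edgeR) with siZIP7_1 and 0.26 (SE 0.0477, adjusted p = 1.69e-05, edgeR) with siZIP7_2. The FPKM of CCN1 relative to CCN2 thus went from 1.09 ± 0.0492 in siNC to 1.55 ± 0.0421 with siZIP7_1 and 1.89 ± 0.0557 with siZIP7_2.

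ANKRD1, a nuclear ankyrin-repeat cofactor and the third standard target, went against CCN1 and CCN2 with siZIP7_1. On chromosome 10 from 90912096 to 90921276 (minus strand), it was at 644, 629 and 663 CPM in siNC, 2481, 2575 and 2535 CPM after siZIP7_1 and 595, 711 and 669 CPM after siZIP7_2. The siZIP7_1 libraries stood apart from the other 6, and siZIP7_2 overlapped the controls on both sides. With siZIP7_1 ANKRD1 rose 3.92-fold (log2 1.97, SE 0.0555, adjusted p = 1.08e-22, edgeR), the largest rise among the 10 genes, while TAZ mRNA had the largest fall. For siZIP7_2 the log2 fold change was 0.03 (SE 0.0539, adjusted p = 0.632, edgeR), and it was -0.02 when the second siZIP7_2 library, the highest of the 3, was left out.

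LATS2 and AMOTL2, targets that feed back on the pathway, did not change alike. LATS2 encodes a kinase that phosphorylates YAP and TAZ and lies on chromosome 13 from 20973032 to 21061547 (minus strand). Its levels were 89.8, 91.4 and 95.8 CPM in siNC, 194, 196 and 189 CPM after siZIP7_1 and 162, 172 and 178 CPM after siZIP7_2. All 6 ZIP7 siRNA libraries were well above the controls. LATS2 rose 2.09-fold with siZIP7_1 (log2 1.07, SE 0.0480, adjusted p = 6.84e-18, edgeR) and 1.85-fold with siZIP7_2 (log2 0.89, SE 0.0482, adjusted p = 4.55e-16, edgeR). AMOTL2, an angiomotin that binds YAP at cell junctions, lies on chromosome 3 from 134355874 to 134375479 (minus strand). It was at 300.4, 293 and 290.4 CPM in siNC, 308, 300.2 and 307 CPM after siZIP7_1 and 229.7, 229 and 239.8 CPM after siZIP7_2. With siZIP7_1 its range touched the controls, and with siZIP7_2 all 3 libraries were below them. The AMOTL2 log2 fold change was 0.05 (SE 0.0439, adjusted p = 0.299, edgeR) with siZIP7_1 and -0.34 (SE 0.0442, adjusted p = 6.69e-08, edgeR) with siZIP7_2. Scaling by library size alone raised the first value to 0.14, which passed the threshold.

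AXL, a receptor tyrosine kinase induced by YAP, fell with siZIP7_2. On chromosome 19 from 41219203 to 41261766 (plus strand), it was at 1875, 2025 and 1834 CPM in siNC, 1728, 1780 and 1705 CPM after siZIP7_1 and 972, 1004 and 1039.5 CPM after siZIP7_2. The siZIP7_2 libraries were far below all others, and the siZIP7_1 libraries were just below the controls. Its log2 fold change was -0.93 (SE 0.0497, adjusted p = 3.45e-16, edgeR) with siZIP7_2 and -0.14 (SE 0.0492, adjusted p = 0.0147, edgeR) with siZIP7_1. The second value rested on single libraries. It was -0.09 (adjusted p = 0.14, edgeR) without the second siNC library, -0.13 (adjusted p = 0.0525, edgeR) without the first siZIP7_1 library and -0.12 (adjusted p = 0.0611, edgeR) without the third, and -0.05 when scaled by library size alone.

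**Figure D2:**
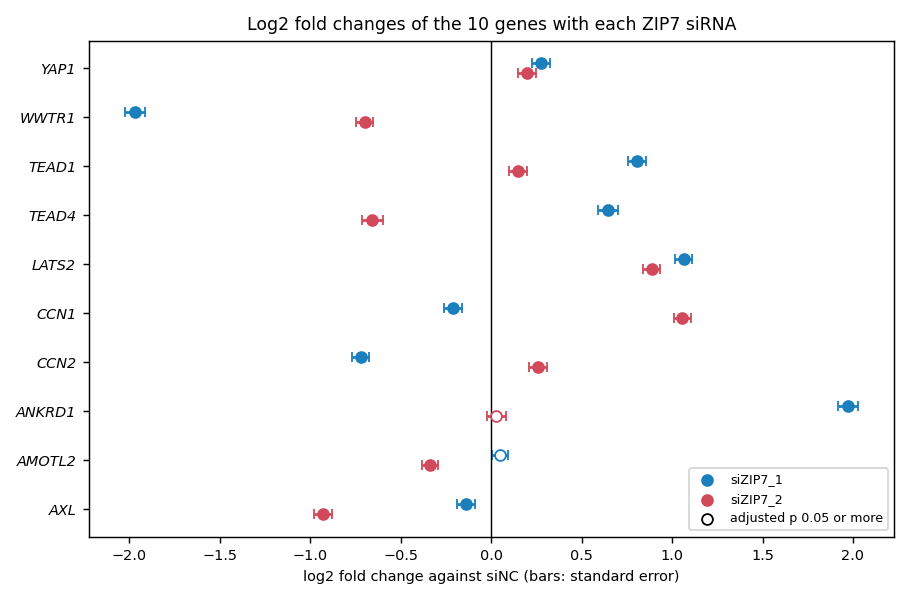
Log2 fold change against siNC (x axis) of the 10 genes, with the standard error as bars, for siZIP7_1 (blue) and siZIP7_2 (red). Open points had an adjusted p of 0.05 or more. TEAD4, CCN1 and CCN2 lie on opposite sides of 0, and YAP1, TEAD1 and LATS2 are above it and WWTR1 and AXL below it with both siRNAs.

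Tested directly, siZIP7_2 and siZIP7_1 differed for 9 of the 10 genes, 3 higher and 6 lower with siZIP7_2, where 78.7% of all genes differed (38.1% higher, 40.6% lower). The libraries of those 9 genes did not overlap between the siRNAs, against 79.7% of all genes. The differences on the log2 scale were 1.27 for WWTR1, 1.27 for CCN1 and 0.98 for CCN2, which were higher with siZIP7_2. They were -1.94 for ANKRD1, -1.30 for TEAD4, -0.79 for AXL, -0.66 for TEAD1, -0.39 for AMOTL2 and -0.18 for LATS2, which were lower. The largest adjusted p among these 9 was 1.05e-03, for LATS2 (edgeR's quasi-likelihood test). For YAP1 the difference was -0.08 (SE 0.0496, adjusted p = 0.147, edgeR), and it ranged from -0.13 to 0.0021 over the alternative settings. SLC39A7 itself was lower with siZIP7_2 than with siZIP7_1 (log2 difference -0.89, adjusted p = 4.89e-13, edgeR).

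In control cells the secreted targets were the most abundant of the 10 mRNAs per length. The siNC levels were 695.5 ± 13.3 FPKM for CCN1, 639 ± 17.4 FPKM for CCN2, 371 ± 19.5 FPKM for AXL and 326 ± 8.54 FPKM for ANKRD1. These 4 targets stood above 99% of genes tested, from percentile 99.7 for ANKRD1 to 99.9 for CCN1. The other genes, among them the targets AMOTL2 and LATS2, were lower. AMOTL2 was at 49.2 ± 0.880 FPKM, YAP1 at 40.9 ± 2.11 FPKM and TEAD4 at 24.6 ± 1.24 FPKM. WWTR1 was at 22.0 ± 1.17 FPKM, TEAD1 at 20.9 ± 0.299 FPKM and LATS2 at 16.6 ± 0.552 FPKM. Neighbours in this order had separate ranges over the 3 libraries, except WWTR1 and TEAD1, which overlapped. With siZIP7_1 ANKRD1 reached 1279 ± 23.7 FPKM and passed CCN1, then at 601 ± 12.1 FPKM, and with siZIP7_2 CCN1 led at 1447 ± 65.1 FPKM.

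The other TEAD partners were examined in a list of 10 genes, 4 of them the coactivators and TEADs above. VGLL1 had no count in any library and VGLL2 had 3 counts in 1 library, so 8 were tested. Of these, 5 rose and 3 fell with siZIP7_1, and 5 rose and 2 fell with siZIP7_2, where 70.7% and 77.8% of all genes were called. Without the 4 described above it was 2 and 2 of 4 with siZIP7_1, and 3 and 0 with siZIP7_2. VGLL3, a vestigial-like TEAD cofactor, was at 10.4 ± 1.06 CPM in siNC, 31.2 ± 1.65 CPM after siZIP7_1 and 56.0 ± 0.830 CPM after siZIP7_2. It was the largest riser of the list with both siRNAs, by 1.58 and 2.43 on the log2 scale (adjusted p = 1.04e-17 and 1.97e-22, edgeR). VGLL4, which competes with YAP for TEADs, fell from 93.9 ± 1.99 to 55.6 ± 0.504 CPM after siZIP7_1 and rose to 241.5 ± 7.09 CPM after siZIP7_2 (log2 -0.76 and 1.36, adjusted p = 1.65e-14 and 5.56e-21, edgeR). Other genes overlap 23.7% of its exonic length. TEAD2 fell from 26.2 ± 2.04 to 9.44 ± 0.364 CPM after siZIP7_1 (log2 -1.47, adjusted p = 2.68e-16, edgeR) and was at 27.5 ± 1.60 CPM after siZIP7_2 (log2 0.07, adjusted p = 0.37, edgeR). TEAD3 rose from 57.7 ± 3.31 CPM to 78.3 ± 1.93 and 79.4 ± 1.87 CPM (log2 0.44 and 0.46, adjusted p = 9.47e-09 and 3.19e-09, edgeR), and the siZIP7 groups overlapped. TEAD1 and TEAD3 thus rose with both siRNAs, TEAD4 moved in opposite directions and TEAD2 fell with siZIP7_1.

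Upstream, the Hippo kinase cassette and its regulators were taken as a list of 40 genes, which includes LATS2 and AMOTL2. MAP4K1 and AMOT did not pass the low-count filter. With siZIP7_1, 19 of the 38 tested genes rose and 13 fell (of all genes, 34.8% rose and 35.9% fell), with a median log2 fold change of 0.13, and 8 of them were called and changed by at least 2-fold. With siZIP7_2, 22 rose and 12 fell (of all genes, 38.5% and 39.3%), with a median of 0.19, and 3 changed by at least 2-fold. Of all genes, 20.9% and 28.2% were called and changed by at least 2-fold. WWC1 (KIBRA), a scaffold that activates LATS, was at 66.1 ± 4.24 CPM in siNC, 226 ± 5.83 CPM after siZIP7_1 and 152 ± 8.04 CPM after siZIP7_2 (log2 1.77 and 1.20, adjusted p = 4.71e-22 and 3.57e-18, edgeR). SAV1, the adaptor of the MST kinases, rose from 69.5 ± 2.49 to 204 ± 6.54 CPM after siZIP7_1 and to 79.9 ± 1.83 CPM after siZIP7_2 (log2 1.55 and 0.20, adjusted p = 9.25e-22 and 5.60e-04, edgeR), with 14.9% of its exonic length overlapped. NF2, the tumour suppressor merlin, rose with siZIP7_1 (log2 0.54) and fell with siZIP7_2 (-0.36).

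The largest falls in this list were those of MAP4K4, DCHS1 and AJUBA with siZIP7_1 and of FAT4 with siZIP7_2. MAP4K4, a kinase that phosphorylates LATS in parallel to MST, was at 409, 421 and 423 CPM in siNC, 101, 105 and 100.4 CPM after siZIP7_1 and 514, 531 and 529 CPM after siZIP7_2. It was thus below the controls with one siRNA and above them with the other (log2 -2.03 and 0.33, adjusted p = 9.55e-25 and 9.83e-08, edgeR). AJUBA, a LIM protein that holds LATS inactive, fell from 446 ± 15.2 to 195 ± 10.5 CPM after siZIP7_1 and to 382 ± 9.34 CPM after siZIP7_2 (log2 -1.19 and -0.22), while its relative WTIP rose (log2 1.41 and 0.84). FAT4, an atypical cadherin, was at 67.2 ± 0.850 CPM in siNC, 145 ± 6.99 CPM after siZIP7_1 and 15.0 ± 0.733 CPM after siZIP7_2 (log2 1.11 and -2.16, adjusted p = 6.07e-18 and 6.37e-23, edgeR). DCHS1, its ligand, did the reverse at a low level, 1.87 ± 0.167 CPM in siNC, 0.759 ± 0.337 CPM after siZIP7_1 and 4.83 ± 0.205 CPM after siZIP7_2 (log2 -1.29 and 1.37). MOB4, a subunit of the striatin phosphatase complex that opposes MST and 16.2% overlapped, had log2 fold changes of 0.29 and -0.50. The call of the first was lost without the first siNC library (0.15) or the second siZIP7_1 library (0.19).

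**Figure D3:**
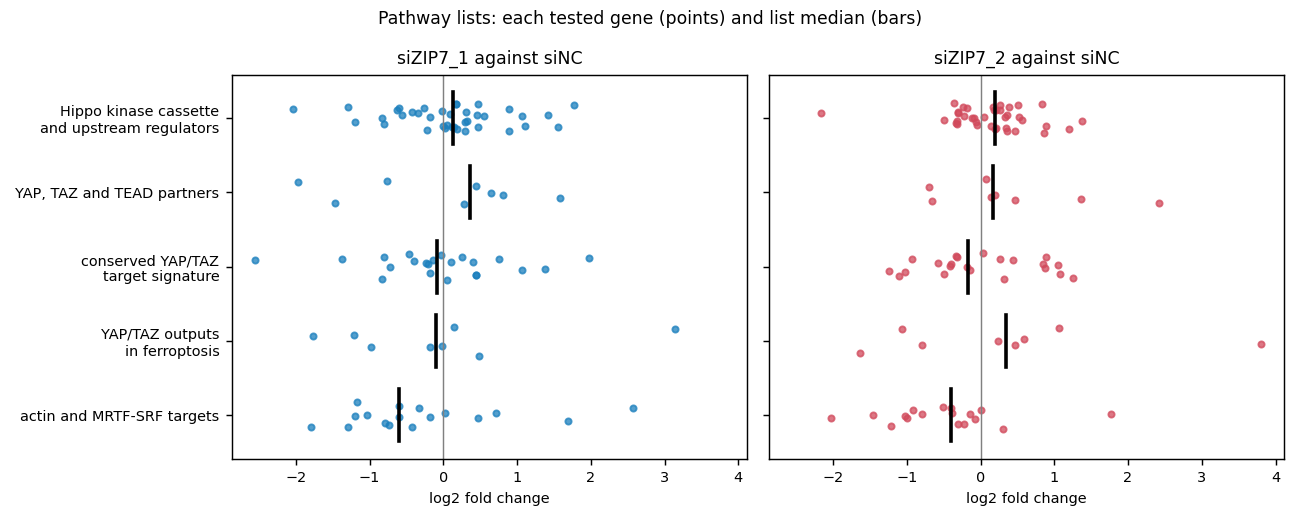
Log2 fold change against siNC (x axis) of each tested gene (points) of the 5 lists, with the list median as a bar, for siZIP7_1 (left) and siZIP7_2 (right). The medians of the actin and MRTF-SRF list were -0.60 and -0.40, and those of the other 4 lists lay between -0.17 and 0.36.

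Among 22 genes of a conserved YAP/TAZ target signature, which holds 6 of the genes above, the siRNAs again gave different orders. With siZIP7_1, 8 rose and 11 fell (median log2 fold change -0.08), and with siZIP7_2, 9 rose and 12 fell (median -0.17), where 70.7% and 77.8% of all genes were called. The 16 genes other than those 6 split into 6 up and 8 down with siZIP7_1, and 6 up and 10 down with siZIP7_2. All 22 differed between the siRNAs, 12 higher and 10 lower with siZIP7_2, where 78.7% of all genes differed. Changes of at least 2-fold were called for 5 genes with siZIP7_1 and for 6 with siZIP7_2, against 20.9% and 28.2% of all genes.

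IGFBP3 and CCDC80, both secreted, had the pattern of CCN1. IGFBP3 was at 63.5 ± 1.46 CPM in siNC, 54.1 ± 1.83 CPM after siZIP7_1 and 134 ± 6.24 CPM after siZIP7_2 (log2 -0.23 and 1.07, adjusted p = 2.09e-04 and 1.12e-17, edgeR). CCDC80 was at 58.0 ± 0.695, 33.2 ± 0.937 and 139 ± 9.59 CPM (log2 -0.81 and 1.26, adjusted p = 1.91e-13 and 9.22e-19, edgeR). F3 (tissue factor) and the ligand gene TGFB2 had the opposite pattern. F3 went from 744 ± 20.0 CPM to 1009 ± 33.6 and 316 ± 5.02 CPM (log2 0.44 and -1.24, adjusted p = 9.96e-10 and 1.02e-19, edgeR). TGFB2 went from 113 ± 6.81 CPM to 190 ± 5.59 and 52.5 ± 1.41 CPM (log2 0.75 and -1.10, adjusted p = 3.45e-14 and 1.52e-17, edgeR), and 26.6% of its exonic length is overlapped by other genes. NUAK2, a kinase, rose with both (log2 1.38 and 0.32). FJX1, a secreted Golgi protein, and PTPN14, a phosphatase that restrains YAP, fell with both, by 1.38 and 1.02 on the log2 scale for FJX1 and by 0.84 and 0.31 for PTPN14. FOXF2, a forkhead factor, had the largest fall of the list with siZIP7_1, from 6.24 ± 0.0787 to 1.06 ± 0.165 CPM, and was at 4.16 ± 0.154 CPM after siZIP7_2 (log2 -2.55 and -0.58, adjusted p = 3.31e-15 and 6.51e-05, edgeR).

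**Figure D4:**
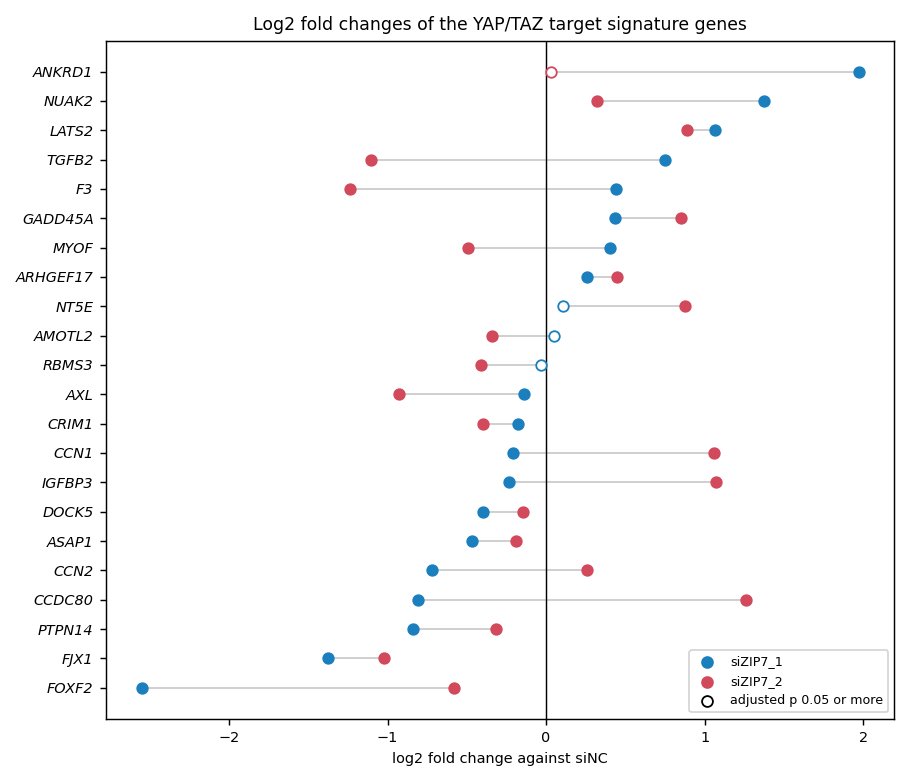
Log2 fold change against siNC (x axis) of the 22 signature genes with siZIP7_1 (blue) and siZIP7_2 (red), sorted by siZIP7_1 and joined by a line. Open points had an adjusted p of 0.05 or more. ANKRD1 (1.97) and FOXF2 (-2.55) mark the ends with siZIP7_1, and CCDC80, IGFBP3 and CCN1 reach past 1 with siZIP7_2.

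Genes that link YAP and TAZ to ferroptosis were taken as a list of 9, most of them downstream and CDH1 upstream of the Hippo kinases. NOX4, an NADPH oxidase downstream of the TAZ target EMP1, had 0 counts in all 9 libraries, which allows up to the floor of 3 counts in each. Of the other 8, 3 rose and 3 fell with siZIP7_1 (median log2 fold change -0.10), and 5 rose and 3 fell with siZIP7_2 (median 0.35), where 70.7% and 77.8% of all genes were called. EMP1, an epithelial membrane protein, was at 433, 438 and 454 CPM in siNC, 124, 137 and 126 CPM after siZIP7_1 and 203, 213 and 217 CPM after siZIP7_2. It fell in every ZIP7 siRNA library and more with siZIP7_1, the order seen for TAZ mRNA (log2 -1.77 and -1.07, SE 0.0491 and 0.0479, adjusted p = 7.33e-23 and 5.43e-18, edgeR). ANGPTL4, a secreted TAZ target, was at 62.4, 63.6 and 59.0 CPM in siNC, 27.5, 26.6 and 25.6 CPM after siZIP7_1 and 902, 781 and 897 CPM after siZIP7_2. With siZIP7_2 no other gene of the 5 lists changed more. It fell 2.32-fold with one siRNA (log2 -1.21, SE 0.0623, adjusted p = 1.49e-16, edgeR) and rose 14.0-fold with the other (log2 3.80, SE 0.0590, adjusted p = 1.37e-28, edgeR).

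The remaining genes of this list were regulators of lipids, iron, cystine and adhesion. ACSL4, which loads polyunsaturated fatty acids into lipids, rose from 196 ± 9.15 CPM to 273 ± 23.4 and 271 ± 15.0 CPM (log2 0.48 and 0.47, adjusted p = 9.08e-09 and 1.15e-08, edgeR). TFRC, the transferrin receptor, was at 530.4 ± 26.3, 585 ± 48.3 and 623 ± 30.1 CPM (log2 0.14 and 0.23, adjusted p = 0.0227 and 4.03e-04, edgeR). The first TFRC call was lost without the first siNC library (0.10) or the second siZIP7_1 library (0.08). SKP2, a ubiquitin ligase subunit, fell from 38.4 ± 1.94 CPM to 19.4 ± 1.69 and 12.4 ± 0.0945 CPM (log2 -0.99 and -1.63, adjusted p = 1.20e-13 and 3.56e-18, edgeR). SLC7A11, the cystine importer subunit, was at 301, 345 and 374 CPM in siNC, 342, 349 and 317 CPM after siZIP7_1 and 483, 517 and 533 CPM after siZIP7_2. Its siZIP7_1 libraries lay among the controls (log2 -0.02, SE 0.0597, adjusted p = 0.777, edgeR) and its siZIP7_2 libraries above them (log2 0.59, SE 0.0596, adjusted p = 5.22e-10, edgeR). CDH1, the E-cadherin through which cell contacts signal to Hippo, was low in siNC, at 0.466 ± 0.125 CPM in siNC, 4.18 ± 0.290 CPM after siZIP7_1 and 0.998 ± 0.254 CPM after siZIP7_2 (log2 3.14 and 1.07, adjusted p = 1.57e-13 and 1.43e-03, edgeR). CYBB, the catalytic subunit of another NADPH oxidase, was at 0.999 ± 0.194, 0.865 ± 0.104 and 0.571 ± 0.0249 CPM, with 14 to 31 counts per library. Its log2 fold change of -0.19 with siZIP7_1 missed the threshold (adjusted p = 0.506, edgeR), and that of -0.79 with siZIP7_2 passed it (adjusted p = 9.74e-03, edgeR) but not with DESeq2.

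**Figure D5:**
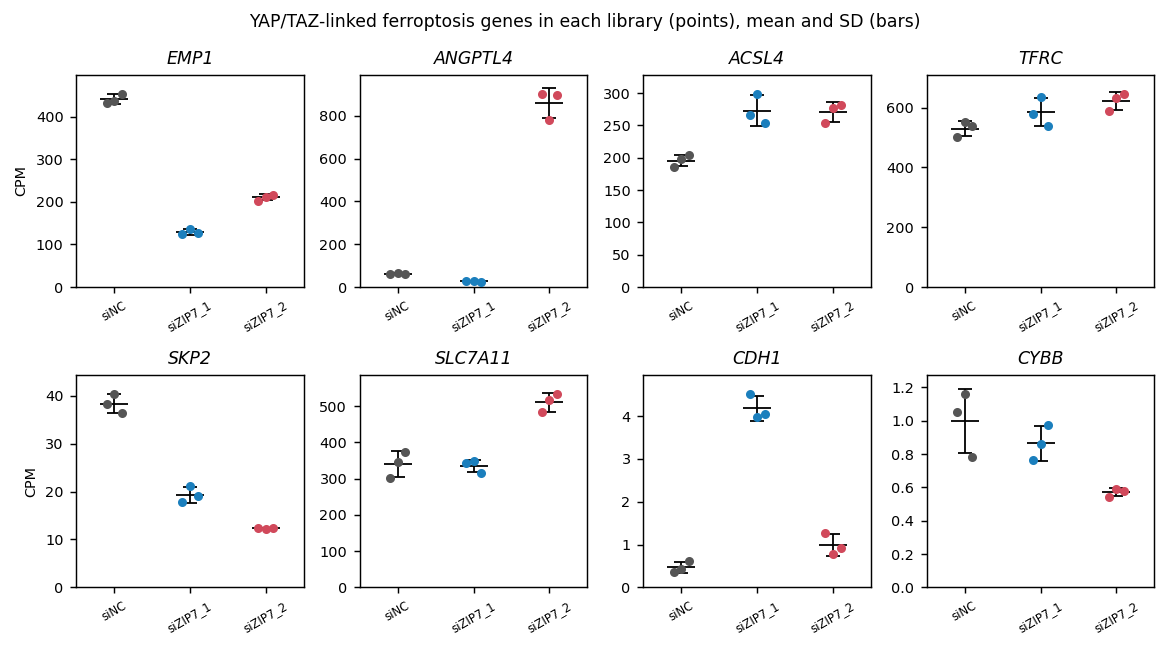
CPM (y axis, from 0, a different scale in each panel) of the 8 detected genes that link YAP and TAZ to ferroptosis, in every library (points), with the mean and SD of 3 libraries as bars. EMP1 and SKP2 are below and ACSL4 above the controls in all 6 ZIP7 siRNA libraries, and ANGPTL4 reaches 781 to 902 CPM after siZIP7_2 only among the 3 groups.

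Actin genes and the targets of MRTF and SRF, which share targets such as CCN1 and CCN2 with YAP/TAZ, had the medians furthest from 0 of the 5 full lists. Of 17 tested genes (CNN1 did not pass the filter), 4 rose and 12 fell with siZIP7_1 and 2 rose and 12 fell with siZIP7_2, with medians of -0.60 and -0.40. In comparison, 35.9% and 39.3% of all genes fell. SRF itself was at 210 ± 10.3 CPM in siNC, 85.8 ± 5.66 CPM after siZIP7_1 and 111 ± 0.965 CPM after siZIP7_2 (log2 -1.29 and -0.92, adjusted p = 3.31e-19 and 5.94e-16, edgeR). MYL9, a myosin light chain, fell from 196 ± 9.50 CPM to 85.6 ± 4.86 and 84.9 ± 2.97 CPM (log2 -1.20 and -1.21, adjusted p = 1.77e-18 and 1.37e-18, edgeR). ACTG1, the cytoplasmic gamma actin, whose reads may be shared with near-identical actin copies, fell from 3945 ± 107 CPM to 1751 ± 3.65 and 965.5 ± 32.0 CPM (log2 -1.17 and -2.03, adjusted p = 6.61e-19 and 3.75e-24, edgeR).

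Other members of the actin list differed in the size or direction of their change. TAGLN, a smooth muscle actin-binding protein, had log2 fold changes of -1.79 and -0.30, and CNN2, a calponin, -0.18 and -1.46. The smaller change of TAGLN was not called with DESeq2 (-0.28), with upper-quartile scaling (-0.19) or without the second siZIP7_2 library (-0.22), and that of CNN2 was not called when scaled by library size alone (-0.09). FHL1, a LIM protein of muscle, rose against the list, from 22.8 ± 2.75 CPM to 135 ± 8.56 and 77.6 ± 1.78 CPM (log2 2.56 and 1.76, adjusted p = 1.39e-23 and 1.03e-19, edgeR). FILIP1L rose with siZIP7_1 (log2 1.69) and had a value of -0.08 with siZIP7_2 (adjusted p = 0.3, edgeR). TPM2, a tropomyosin, fell with siZIP7_1 (-1.04) and rose with siZIP7_2 (0.31). ACTA2, at 1.11 ± 0.0837 CPM in siNC and with 30.1% of its exonic length overlapped, rose with siZIP7_1 (0.71) and had a value of -0.38 with siZIP7_2 (adjusted p = 0.153, edgeR).

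Genes that changed most like YAP1, WWTR1, CCN1 and CCN2 were sought among the 9747 tested genes averaging 10 CPM or more, by the distance between their pairs of log2 fold changes with siZIP7_1 and siZIP7_2. For CCN1 the nearest were PHF21A (distance 0.015), IGFBP3 (0.029) and NFKB2 (0.032), of which IGFBP3 is also in the signature. CCN2 had CREM (0.014), ARHGEF2 (0.015) and SMAP1 (0.015) as nearest, and YAP1 had TSTA3 (0.006), NEU1 (0.009) and GLIS3 (0.010). For WWTR1 the nearest genes were farther off, S100A6 (0.136), ZMPSTE24 (0.161) and SCAMP5 (0.195). Such distances also depend on how many genes have changes of that size, so they cannot be compared between these genes. The likeness describes 3 group means only.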

How the data were processed

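Libraries were grouped by their siRNA labels. The authors deposited raw read counts per Ensembl gene for each library, and the labels name Trim Galore 0.4.1, FastQC 0.11.2, STAR, HTSeq 0.6.1 and DESeq2 1.16.1. The genome build and strand setting are not given in the sources used here, so antisense reads cannot be told apart. Symbols, positions and exonic lengths came from GENCODE 29 (GRCh38), which held 58275 of the 58395 identifiers. Ambiguous reads made up 2.66% to 2.91%.

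The counts went into edgeR 4.0.16 under R 4.3.3 (filterByExpr, TMM, quasi-likelihood test, Benjamini-Hochberg over 16761 genes, threshold 0.05) in 1 fit of 3 groups. The steps were also run on simulated counts in which a small part of the genes changed, in siZIP7_1 only. That run cannot check the scaling or the calls where most genes are called, as they were here. The SE is the log2 fold change divided by the square root of F. The study describes triplicate transfections and does not say whether they were made on separate days or from separate cultures, so p-values measure the spread between these libraries, part of which may be technical. Library pairs differed by a chi-square per gene of 2.41 to 6.42 within groups and 153 to 287 between groups, so none was counted as a duplicate. The members and lists were chosen with earlier results of these data known. Besides the 10 genes and SLC39A7, the text names every gene of the partner and ferroptosis lists, the 3 highest and 3 lowest called genes of the other lists per siRNA, and the 3 nearest genes of YAP1, WWTR1, CCN1 and CCN2. Alternatives were DESeq2 1.42.0, other scalings and filters, glmTreat, a replicate block, pairwise fits and each library left out.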

Additional observations from a re-analysis of the deposited data

Results flagged for a closer look

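The effects of the 2 siRNAs against the same siNC libraries differed by edgeR's quasi-likelihood test for 9 of the 10 genes, where 78.7% of all genes differed. On the log2 scale, siZIP7_2 minus siZIP7_1 was 1.27 for WWTR1, 1.27 for CCN1 and 0.98 for CCN2. It was -0.66 for TEAD1, -1.30 for TEAD4, -1.94 for ANKRD1, -0.39 for AMOTL2, -0.79 for AXL and -0.18 for LATS2. For TEAD4, CCN1 and CCN2 every siZIP7_1 library lay on one side of the controls and every siZIP7_2 library on the other.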

How the results depend on the processing

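Of 540 values of the 10 genes under 18 alternatives, 510 kept their direction and their side of the threshold, 23 lost the call, 4 gained it and 3 changed sign. Not all of these could move freely. The glmTreat values keep the fold changes of the main fit and so could not change sign. Some libraries left out belonged to the group outside the comparison, where little change could arise. A test against a 1.8-fold change (glmTreat) asks for more. Of all 16761 genes it left 2836, 4134 and 4725 for siZIP7_1, siZIP7_2 and the siRNAs against each other. In the same order it left 3, 1 and 5 of the 10 genes, 7, 3 and 5 of the kinase list, 5, 6 and 9 of the signature and 7, 6 and 5 of the actin list. It left 3, 2 and 4 of the 8 tested partners and 4, 3 and 2 of the 8 tested ferroptosis genes, again in this order.

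Sign changes were of small values, and the cause was not tested. ANKRD1 with siZIP7_2 was -0.02316 with no low-count filter and -0.02309 without the second siZIP7_2 library, and 0.13 (called) with upper-quartile scaling, which moved the median of all genes to 0.10. The same scaling gave 0.00209 for YAP1 between the siRNAs and 0.02971 for FILIP1L with siZIP7_2. SLC7A11 with siZIP7_1 was 0.003153 with at least 10 counts in every library, 0.068 by library size alone, 0.005733 with upper-quartile scaling, -0.1037 to 0.06542 over each library left out, the highest without the third siNC library, and 0.02233 without the third siZIP7_1 library. YAP1 between the siRNAs was called by library size alone (-0.13) and with no low-count filter (-0.13). Leaving out 1 library gave 11291 to 11984, 12633 to 13360 and 12840 to 13458 genes, and 8 to 9, 9 and 9 of the 10.

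The replicate numbers did not pair the libraries: same-numbered libraries correlated from -0.124 to 0.131, and 3 of 9 correlated best with their own number. The replicate block gave 11927, 13080 and 13242 genes and 9 of the 10 in each comparison. Genes near 1 CPM, such as CYBB, CDH1 and DCHS1, rest on few counts.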
